A study of Mus musculus with 9 samples.

Results

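The kynurenine pathway is the main route by which mammalian cells break down tryptophan. The 7 genes described here encode its enzymes and a related tryptophan oxidase: *Ido1*, *Ido2*, *Afmid*, *Kmo*, *Kynu*, *Haao*, and *Il4i1*. They were listed by name, among 19937 genes measured, and the list was built around *Kmo*, which was selected on its differences between the populations compared here. The values of *Kmo* are therefore a description, with no test, and tests are given for the other genes. Each gene was read from its brightest probe set among those naming that gene alone, and 6 of the 7 genes had such a probe set. The only probe set of *Il4i1* also names *Il4i1b*, so no value is given for it.

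The cells were Ly6Chi CD115+ cells sorted from the bone marrow of C57Bl/6 mice at steady state, aged 8 weeks by the labels, with no treatment and no genetic change given. Populations R3 (Flt3+CD11c+), R2 (Flt3+CD11c-), and R1 (Flt3-CD11c-) were taken from them, and the study treats R3 as precursors of dendritic cells (pre-DCs) and R2 and R1 as monocytes. There were 9 Affymetrix whole-transcript arrays, 3 per population, each made from 1 ng RNA after amplification, and each of 3 label dates gave 1 array of each population, which share a replicate number. The labels do not say whether the arrays came from separate mice. The p-values therefore rest on array-to-array spread, part of which may be technical. The number of arrays limits the precision.

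In this pathway *Ido1*, *Ido2*, and, mainly in liver, *Tdo2* open the ring of tryptophan, and the formamidase encoded by *Afmid* releases kynurenine. Kynurenine 3-monooxygenase (*Kmo*), an enzyme of the outer mitochondrial membrane, then makes 3-hydroxykynurenine, kynureninase (*Kynu*) cuts it to 3-hydroxyanthranilic acid, and the dioxygenase encoded by *Haao* opens that ring on the way to quinolinic acid and NAD. In DCs the pathway is best known for *Ido1*, whose product limits T cell responses by removing tryptophan and supplying kynurenine, a ligand of the aryl hydrocarbon receptor.

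The start region of *Kmo* is shown because *Kmo* had the largest differences of the 6 genes, and that of *Haao* because *Haao* was also bright on every array without standing higher in R3. Both are RefSeq sequences of GRCm38.p6, from 250 bases before to 50 bases after the transcript start and read in the direction of the gene, *Kmo* at chr1:175631943-175632242 on the plus strand and *Haao* at chr17:83846741-83847040 on the minus strand. Capitals in *Kmo* mark the only match to the patterns searched, which are given after the sequences.
Kmo: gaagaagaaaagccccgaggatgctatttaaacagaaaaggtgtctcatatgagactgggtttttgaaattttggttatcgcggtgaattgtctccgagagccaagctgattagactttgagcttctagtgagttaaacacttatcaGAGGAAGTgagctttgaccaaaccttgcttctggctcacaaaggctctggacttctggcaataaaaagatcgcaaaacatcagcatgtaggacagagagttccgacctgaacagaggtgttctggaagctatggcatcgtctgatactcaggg
Haao: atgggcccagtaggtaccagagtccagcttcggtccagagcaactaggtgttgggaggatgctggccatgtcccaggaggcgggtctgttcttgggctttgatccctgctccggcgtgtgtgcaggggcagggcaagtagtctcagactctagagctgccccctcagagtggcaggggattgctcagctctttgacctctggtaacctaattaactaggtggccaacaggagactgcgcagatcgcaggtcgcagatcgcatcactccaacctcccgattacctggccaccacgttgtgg
The patterns searched on both strands were GAGGAAGT for PU.1, the transcription factor the study is concerned with, a pair of GAAA spaced by any 2 bases for interferon regulatory factors (IRF), and GGAA, any 2 bases, and GAAA for a composite of an ETS factor such as PU.1 with an IRF. The IRF and composite patterns differ in 1 letter. The patterns were chosen after the *Kmo* sequence had been seen. *Kmo* holds GAGGAAGT on its own strand from base -103 to base -96 before the start, and *Haao* holds none of the patterns. Promoter sequences were matched for 4 of the 7 genes, *Kmo*, *Haao*, *Afmid*, and *Il4i1*, and the only other match was on the opposite strand of *Il4i1*, as ACTTCCTC from base -133 to base -126. GAGGAAGT was present in 3.2% of 32851 such promoters (1052), the IRF pattern in 3.44% (1131), and the composite in 2.72% (892). A match describes the letters only and does not show that a factor binds.

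The sort markers followed the labels, apart from an overlap of R2 and R1 in *Flt3*. *Flt3* intensity ranged from 2029 to 2187 in R3, from 207 to 259 in R2, and from 107 to 219 in R1. *Itgax*, which encodes CD11c, ranged from 1662 to 1848 in R3, from 39.4 to 72.7 in R2, and from 33.4 to 40.1 in R1. *Csf1r*, which encodes CD115, was bright on all 9 arrays, at 1582 to 1903 in R3, 1973 to 2106 in R2, and 2314 to 2576 in R1. *Zbtb46*, a transcription factor of conventional DCs, ranged from 76.4 to 151 in R3, against 57.2 to 65.0 in R2 and 54.4 to 64.7 in R1. *Siglech*, a lectin of plasmacytoid DCs and their precursors, ranged from 640 to 1060 in R3, from 47.6 to 66.0 in R2, and from 41.7 to 54.9 in R1. The summed intensity of 9 neutrophil markers spread widely among R3 arrays, at 16037, 1494, and 6891 in replicates 1 to 3, against 8761 to 11237 in R2 and 6564 to 9429 in R1. The list did not move as one. In R2 and R1 the sum was mostly *S100a8* (5235 to 6629 and 4266 to 5457) and *S100a9* (3245 to 4217 and 2107 to 3555). *Camp*, *Ltf*, and *Ngp* spread widely in R3, *Camp* from 71.27 to 1773. *Ly6g*, *Mmp9*, *Cxcr2*, and *Retnlg* lay between 13.52 and 33.64 on all arrays. The 6 T cell, 6 natural killer cell, and 6 erythroid markers summed to at most 308 on any array. The 7 B cell markers summed to 685 to 711 in R3, 499 to 593 in R2, and 523 to 566 in R1. The 5 basophil and mast cell markers summed to 157 to 340, 292 to 330, and 175 to 209. Among these, *Mcpt8* lay at 36.93 to 96.81 in R3, 150.8 to 178.8 in R2, and 61.75 to 96.67 in R1.

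To place these intensities, 22 genes restricted to tissues such as liver, pancreas, and eye served as a gauge of probe sets for genes these cells should not express. They gave 6.56 to 218 on single arrays, with a median of 30.8 and a 90th percentile of 78.9. Averaged over the 9 arrays, 14 of the 22 were brighter than *Ido1*, 6 were brighter than *Ido2*, 2 were brighter than *Afmid*, and 0 were brighter than *Kmo*, *Kynu*, or *Haao*. For *Kmo* and *Kynu* this average includes the high R3 arrays. Within R1, *Apoa2* of the gauge (187 to 218) lay above *Kmo* (158 to 177) and *Kynu* (122 to 186). Within R2, *Apoa2* (187 to 199) lay above *Kynu* (98.9 to 164). Levels of different probe sets depend on their own hybridization, so the order of genes by intensity is no order of transcript amounts.

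*Kmo* (probe set 10352000) stood in the order R3, R2, R1 on every date. Its intensity was 2092, 2292, and 1994 in R3, 270, 258, and 296 in R2, and 177, 158, and 169 in R1. No array of a population overlapped any array of another, and R2 lay far closer to R1 than to R3. On the log2 scale *Kmo* averaged 11.05 ± 0.10 in R3 (SD, n = 3 arrays, as for each mean here), 8.10 ± 0.10 in R2, and 7.39 ± 0.08 in R1. R3 was 2.95 higher than R2 (standard error 0.084, 95% interval 2.76 to 3.14), or 7.74-fold, and 3.66 higher than R1 (95% interval 3.47 to 3.85), or 12.6-fold. R2 was 0.71 higher than R1 (95% interval 0.52 to 0.90), or 1.63-fold. These intervals describe the spread of the arrays. They do not allow for the selection of *Kmo* on these differences and are no test. By date, R3 exceeded R2 by 2.96, 3.15, and 2.75, R3 exceeded R1 by 3.56, 3.86, and 3.56, and R2 exceeded R1 by 0.60, 0.71, and 0.81. These are averages over sorted cells, and on these arrays fewer cells with the transcript cannot be told apart from less transcript per cell. The study's single-cell PCR reported *Kmo*, with *Cd209a* and *Flt3*, in a cluster of cells seen only in R2. It also found some R2 cells in clusters that were enriched in R3. Those single-cell values were not used here. Without any 1 array or any 1 date, R3 minus R2 stayed between 2.85 and 3.05, R3 minus R1 between 3.56 and 3.71, and R2 minus R1 between 0.65 and 0.76.

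**Figure D1:**
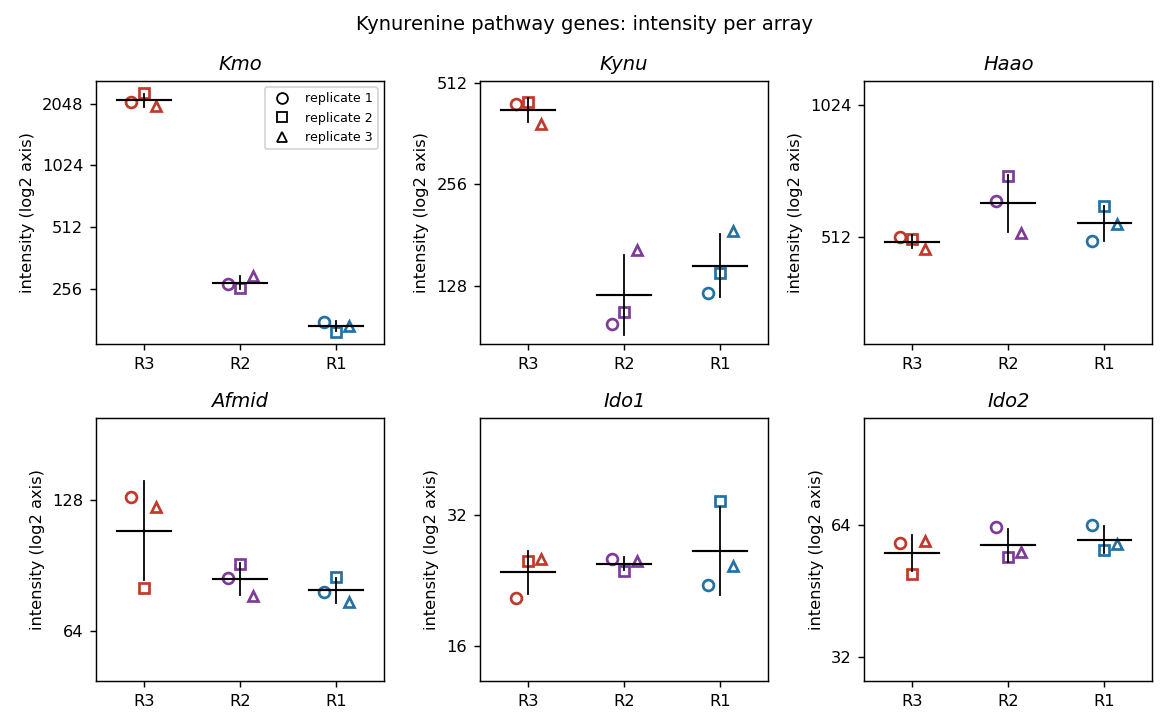
Intensity (log2 axis) of the 6 measured genes on each array, for R3, R2, and R1 from left to right. Symbols are replicates, which share a label date, horizontal lines the mean of log2 values, and vertical lines 1 SD either way (n = 3). *Kmo* lies at 1994 to 2292 in R3, 258 to 296 in R2, and 158 to 177 in R1, *Kynu* separates R3 from the others only, and the other 4 panels show no such step.

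The R2 level of *Kmo* was set beside those of DC markers. On the linear scale, the mean of R2 lay 5.44% of the way from the mean of R1 to the mean of R3, and 4.82%, 4.70%, and 6.94% on the 3 dates (SD 1.26). On the log2 scale it lay 19.3% of the way, so the figure depends on the scale. Of 8 DC markers, 6 lay lower on the linear measure and 2 higher, with a range of 0.244% to 7.91% and a median of 3.49%. The R2 level of *Kmo* thus lay within the range of the DC markers. *Clec9a*, a lectin receptor of DCs and their precursors, lay at 7.91% and *Cd209a* at 6.55%, both higher than *Kmo*. *Flt3* lay at 4.36%, *Zbtb46* at 2.62%, *Itgax*, on which R2 was sorted as negative, at 1.29%, and *P2ry10* at 0.244%. The 8 markers summed to 13940, 14209, and 12934 in R3, 1579, 1785, and 1541 in R2, and 898, 1405, and 915 in R1. Within R1, the array of replicate 2 had the highest sum of DC markers and the lowest *Kmo*. The DC markers did not move as one there. *Cd209a* (110.3 to 415.1), *Bcl11a* (415.3 to 546.2), and *Flt3* (107.2 to 219.4) had the widest R1 ranges. *Clec9a* (58.38 to 83.66) and the remaining markers ranged less. The part of DC-like cells in the *Kmo* level of R2 was not tested.

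*Kynu* (probe set 10471912), whose product acts directly after that of *Kmo*, was also highest in R3 but did not separate R2 from R1. It read 442, 451, and 386 in R3, 98.9, 107, and 164 in R2, and 122, 140, and 186 in R1. All R3 arrays lay above all others, whereas R2 and R1 overlapped, and replicate 3 was the lowest of R3 and the highest of R2 and of R1. The log2 mean was 8.73 ± 0.12 in R3, 6.91 ± 0.39 in R2, and 7.20 ± 0.31 in R1 (SD, n = 3 each). *Kynu* was higher in R3 than in R2 by 1.82 on the log2 scale (standard error 0.20, 95% interval 1.36 to 2.28, adjusted p = 0.000433, limma), or 3.53-fold. It was higher in R3 than in R1 by 1.53 (standard error 0.20, 95% interval 1.07 to 1.99, adjusted p = 0.000998), or 2.89-fold. R2 minus R1 was -0.29 (95% interval -0.75 to 0.17, adjusted p = 0.706), with R2 the lower on all 3 dates. By date, R3 exceeded R2 by 2.16, 2.07, and 1.23 and R1 by 1.85, 1.69, and 1.05. The call against R1 did not hold with replicate 2 left out of all populations, where the difference was 1.45 (adjusted p = 0.057).

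**Figure D2:**
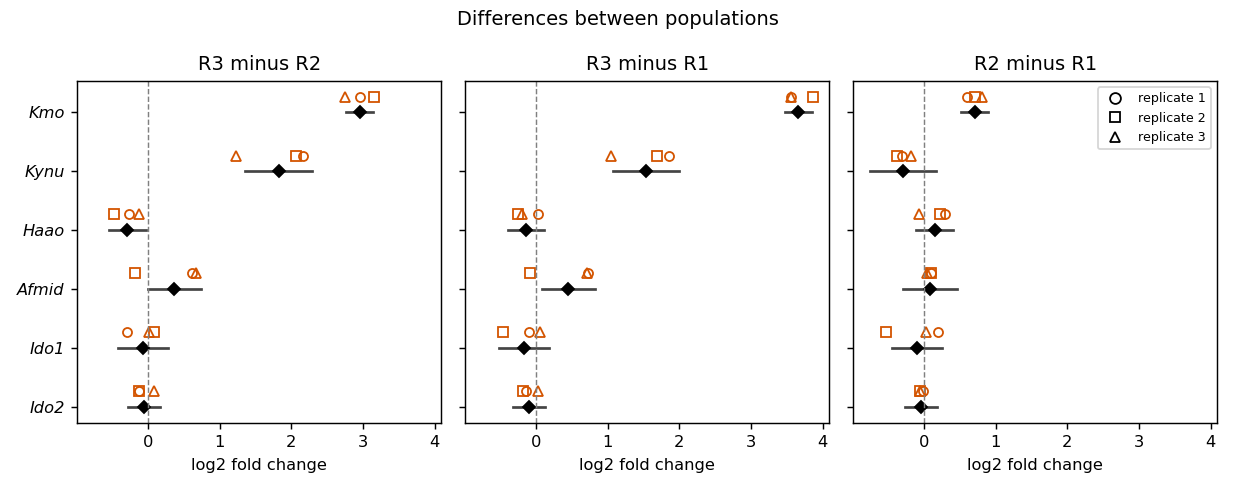
Log2 fold change of the 6 measured genes for R3 minus R2, R3 minus R1, and R2 minus R1. Diamonds with lines are the fitted difference over all arrays with its 95% interval, and open symbols are the difference within each label date. The intervals of *Kmo* do not allow for its selection on these differences. *Kmo* lies at 2.95, 3.66, and 0.71 and *Kynu* at 1.82, 1.53, and -0.29, while the intervals of the other genes reach no further than 0.83 from 0.

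*Haao* (probe set 10453260), whose product takes up what *Kynu* makes, did not follow them. Its intensity was 513, 507, and 480 in R3, 618, 706, and 523 in R2, and 502, 603, and 549 in R1. It was thus bright in every population, and the R3 arrays lay just below those of R2 while overlapping those of R1. R3 minus R2 was -0.29 on the log2 scale (standard error 0.11, 95% interval -0.55 to -0.03, adjusted p = 0.189, limma), which did not pass the threshold. R3 minus R1 was -0.14 (95% interval -0.39 to 0.12, adjusted p = 0.546), and R2 minus R1 was 0.15 (95% interval -0.10 to 0.41, adjusted p = 0.724).

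*Afmid* (probe set 10382985), which acts directly before *Kmo*, had 130, 80.6, and 123 in R3, 84.7, 91.4, and 77.2 in R2, and 78.8, 85.2, and 74.8 in R1. In R3, replicates 1 and 3 stood above all other arrays and replicate 2 among those of R2 and R1. R3 minus R2 was 0.37 on the log2 scale (95% interval -0.0052 to 0.74, adjusted p = 0.266) and R3 minus R1 was 0.45 (95% interval 0.08 to 0.83, adjusted p = 0.121), so neither passed the threshold. R2 minus R1 was 0.08 (95% interval -0.29 to 0.46, adjusted p = 0.914). The array of R3 replicate 2 decided this: without it R3 was higher than R2 by 0.59 (adjusted p = 0.00817) and higher than R1 by 0.67 (adjusted p = 0.00346). That array also had the lowest neutrophil marker sum, 1494, against 16037 and 6891 on the other R3 arrays. It was the lowest R3 array for the DC marker *Zbtb46* too, at 76.4 against 130 and 151. The sum of DC markers was highest on it, at 14209. The R2 arrays had sums of 8761 to 11237 with *Afmid* at 77.2 to 91.4. Neither the part of neutrophil RNA in the *Afmid* values nor a link of *Afmid* with *Zbtb46* was tested. In the RefSeq table the coordinates of *Afmid* overlap those of *Tk1*, the thymidine kinase of dividing cells. They were read from different probe sets, each naming 1 gene. Whether any of their probes lie in shared sequence, where signals could not be told apart, was not checked. *Tk1* read 1023, 878, and 624 in R3, 862, 914, and 750 in R2, and 509, 648, and 570 in R1, with R2 above R1 on every array and R3 overlapping R1. *Tk1* was not called in any comparison, but was called higher in R3 against R1 with R3 replicate 3 left out (adjusted p = 0.00917).

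**Figure D3:**
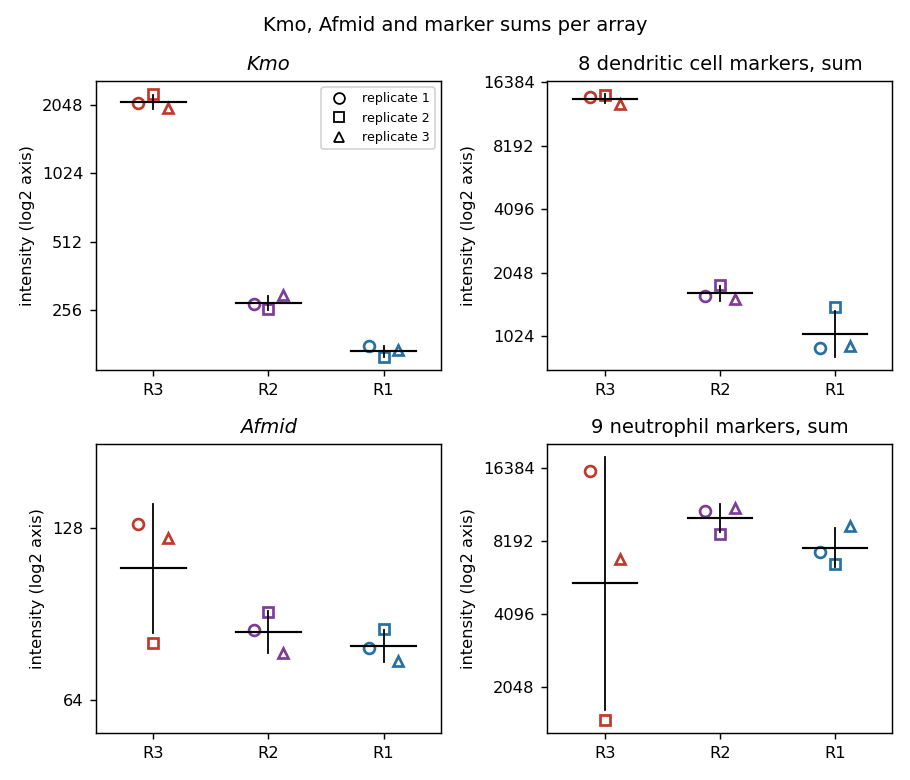
Intensity (log2 axis) per array of *Kmo* and *Afmid* on the left and of the summed DC and neutrophil markers on the right, for R3, R2, and R1. Symbols, lines, and SD as for the plot of the 6 genes. The DC sum, like *Kmo*, is high in R3 (12934 to 14209) and low in R2 (1541 to 1785) and R1 (898 to 1405), and the lowest R3 value of *Afmid* (80.6) and of the neutrophil sum (1494) is the same array. *Zbtb46*, not drawn, was also lowest in R3 on that array (76.4).

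The dioxygenases that open the pathway were dim in all 3 populations. *Ido1* (probe set 10577655) had 20.7, 25.1, and 25.4 in R3, 25.4, 23.8, and 25.1 in R2, and 22.1, 34.4, and 24.5 in R1. *Ido2* (probe set 10577645) had 58.1, 49.5, and 58.7 in R3, 63.4, 54.0, and 55.6 in R2, and 64.1, 56.1, and 57.8 in R1. The populations overlapped for both genes, at intensities shared with genes of other tissues. For *Ido1*, R3 minus R2 was -0.06 on the log2 scale (95% interval -0.41 to 0.28, adjusted p = 0.906), R3 minus R1 was -0.16 (95% interval -0.51 to 0.18, adjusted p = 0.603), and R2 minus R1 was -0.10 (95% interval -0.45 to 0.25, adjusted p = 0.888). For *Ido2* they were -0.06 (95% interval -0.28 to 0.16, adjusted p = 0.859), -0.10 (95% interval -0.32 to 0.12, adjusted p = 0.622), and -0.04 (95% interval -0.26 to 0.18, adjusted p = 0.929). At such intensities a small difference in transcript may not be seen. *Tdo2*, the liver enzyme of the same step, lay between 8.86 and 11.0 on all arrays.

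Of the 5 measured genes other than *Kmo*, *Kynu* alone passed the threshold in the R3 comparisons (1 of 5 higher against R2, 1 of 5 higher against R1), and 0 were called lower. Among all genes, 9.55% were called between R3 and R2 (4.85% higher and 4.69% lower in R3), and 13.5% between R3 and R1 (6.49% higher and 7.02% lower in R3). The median log2 difference of the 5 genes was -0.057 for R3 minus R2 and -0.099 for R3 minus R1, against -0.0069 and -0.021 over all genes. Between R2 and R1, 0 of the 5 were called by limma, and 0 had an unadjusted p under 0.05, where 0.391% of all genes were called (0.211% higher and 0.181% lower in R2). The 2 R3 comparisons share the R3 arrays.

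A wider list of 48 genes around the pathway held transporters, side branches, NAD synthesis, sensors of kynurenines, and other fates of tryptophan, and 44 of them were measured. Between R3 and R2, 4 of the 44 were called, 2 higher and 2 lower in R3 (9.09%, near the share of all genes), with a median of -0.079 on the log2 scale. Between R3 and R1, 9 were called, 2 higher and 7 lower (20.5%, against 13.5% of all genes), with a median of -0.12. Between R2 and R1, 0 were called by limma, while 8 (18.2%) had an unadjusted p under 0.05, against 2129 of all 19937 genes (10.7%), and the median was -0.057. The methods' t-test, adjusted here over all genes, called 0 of the 44 and 1 of all genes there. The study's cutoff for array genes, a fold change of at least 2 and a p under 0.05, was not applied. The 3 largest differences between R3 and R1 on this list were of genes lower in R3, *Bst1*, *Slc16a10*, and *Nadk*, in NAD metabolism and transport.

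**Figure D4:**
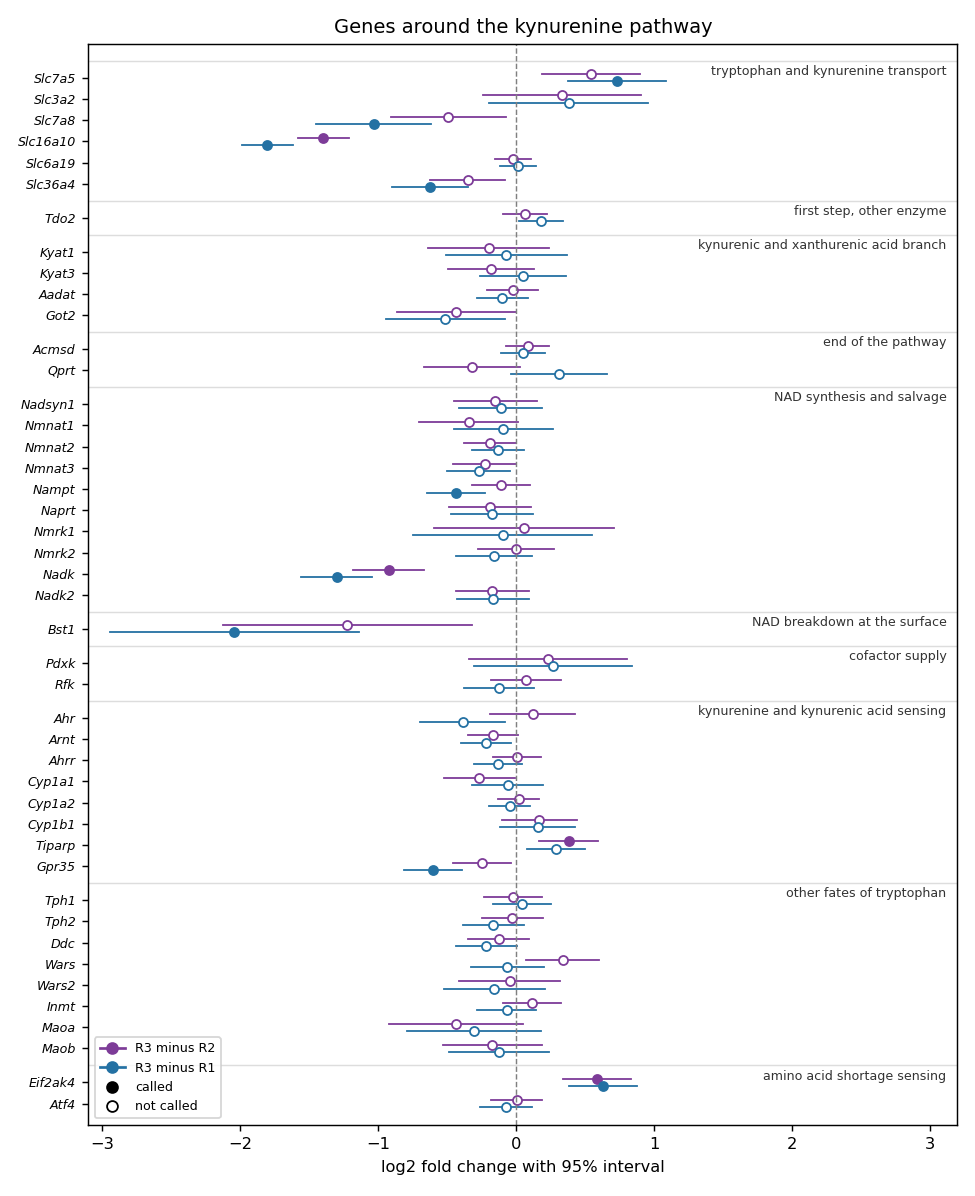
Log2 fold change with 95% interval of the 44 measured genes around the pathway, grouped by role, for R3 minus R2 (purple) and R3 minus R1 (blue). Filled symbols passed the threshold of an adjusted p under 0.05. *Bst1* (-2.04), *Slc16a10* (-1.80), and *Nadk* (-1.30) lie farthest to the left for R3 minus R1, and *Slc7a5* (0.73) and *Eif2ak4* (0.63) farthest to the right among filled symbols.

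Of 6 transporters, 1 was called between R3 and R2, where 9.55% of all genes were, and 4 between R3 and R1, where 13.5% were, and 3 of these 4 calls were lost with the methods' t-test. *Slc16a10*, which encodes the aromatic amino acid carrier TAT1, had 145, 132, and 123 in R3, 354, 360, and 338 in R2, and 431, 485, and 479 in R1. The populations stood apart, in the reverse of the order of *Kmo*. R3 was lower than R2 (log2 fold change -1.40, adjusted p = 8.58e-06, limma) and lower than R1 (-1.80, adjusted p = 1.43e-06), and R2 minus R1 was -0.41 (adjusted p = 0.09). *Slc7a5*, the light chain LAT1 of the exchanger that carries tryptophan and kynurenine, went the other way. It had 614, 565, and 720 in R3, 464, 414, and 422 in R2, and 303, 477, and 377 in R1, and it was called higher in R3 than in R1 (0.73, adjusted p = 0.0133) but not than in R2 (0.54, adjusted p = 0.0679). It was also called against R2 in 6 of 20 alternative fits (adjusted p from 0.0236 to 0.0377), those without R1 replicate 1 or 2, with R3 and R2 fitted alone, with array weights, with quantile normalization, and with bright genes only. Its partner *Slc3a2* was not called, except higher in R3 against R1 with R1 replicate 2 left out (0.70, adjusted p = 0.0353). *Slc7a8* (LAT2) was lower in R3 against R1 (-1.03, adjusted p = 0.00528), at 22.2 to 24.6 in R3, 31.3 to 34.3 in R2, and 37.4 to 66.9 in R1, intensities within the gauge of genes of other tissues. R3 minus R2 was -0.49 (adjusted p = 0.166), and it was called without R1 replicate 2 (adjusted p = 0.00643), with R3 and R2 fitted alone (adjusted p = 0.00705), and with the methods' t-test (adjusted p = 0.0386). *Slc36a4*, a transporter that takes up tryptophan, was also lower in R3 than in R1 (-0.63, adjusted p = 0.00808). With the methods' t-test the calls of *Slc7a5*, *Slc7a8*, and *Slc36a4* were lost (adjusted p = 0.215, 0.167, and 0.166), and that of *Slc7a5* also with R3 and R1 fitted alone (adjusted p = 0.0573). They were also lost with replicate 1 or 3 left out for *Slc7a5* (adjusted p = 0.104 and 0.184), replicate 1 for *Slc7a8* (adjusted p = 0.0793), and replicate 2 for *Slc36a4* (adjusted p = 0.0928).

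Among 10 genes of NAD synthesis and salvage, *Nadk*, the kinase that makes NADP from NAD, was the only gene called in both R3 comparisons. It had 639, 600, and 817 in R3, 1224, 1343, and 1303 in R2, and 1791, 1633, and 1596 in R1, with no overlap between populations. R3 was lower than R2 (log2 fold change -0.92, adjusted p = 0.000775) and lower than R1 (-1.30, adjusted p = 7.67e-05), and R2 minus R1 was -0.37 (adjusted p = 0.252). The call against R2 was lost with the methods' t-test (adjusted p = 0.0573). *Nampt*, the salvage enzyme of nicotinamide, was lower in R3 than in R1 (-0.43, adjusted p = 0.0132), with 367, 294, and 327 in R3 and 421, 451, and 457 in R1. This call was lost with the methods' t-test (adjusted p = 0.136) and with replicate 2 or 3 left out (adjusted p = 0.162 and 0.165). *Qprt*, which carries quinolinic acid on toward NAD, had 129, 150, and 104 in R3, 149, 145, and 181 in R2, and 112, 86.4, and 109 in R1. Its R2 arrays lay above those of R1 without overlap, at a difference of 0.63 that did not pass the threshold (adjusted p = 0.152). *Bst1*, a surface enzyme that breaks down NAD, had 68.2, 36.6, and 47.0 in R3, 84.8, 120, and 147 in R2, and 108, 225, and 339 in R1. R3 lay below R1 by a log2 fold change of -2.04 (adjusted p = 0.00829), a call that ended with replicate 2 left out (-1.76, adjusted p = 0.185), with replicate 3 left out (-1.64, adjusted p = 0.107), and with the methods' t-test (adjusted p = 0.185). R3 minus R2 was -1.22 (adjusted p = 0.106, or 0.0304 without R1 replicate 1).

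Among 8 genes of kynurenine sensing, *Ahr*, the aryl hydrocarbon receptor, was not called. It had 205, 205, and 184 in R3, 205, 186, and 157 in R2, and 213, 289, and 281 in R1, so that every R1 array lay above all others. R3 minus R1 was -0.39 (adjusted p = 0.105, or 0.0192 with R1 replicate 1 left out) and R2 minus R1 was -0.51 (adjusted p = 0.185). Of its target genes, *Tiparp* was called higher in R3 than in R2 (0.38, adjusted p = 0.0341), at 290, 318, and 330 in R3 against 233, 265, and 223 in R2, and *Cyp1a1*, *Cyp1b1*, and *Ahrr* were dim and not called. The *Tiparp* call was lost in 10 of 20 alternative fits (adjusted p from 0.051 to 0.319), among them those without R3 replicate 2 or 3, R2 replicate 1 or 3, R1 replicate 2, or any 1 date. *Gpr35*, a receptor of kynurenic acid, was lower in R3 than in R1 (-0.60, adjusted p = 0.00216), at 263, 284, and 303 in R3 against 423, 421, and 446 in R1, and was not called with replicate 2 left out (adjusted p = 0.0728). *Eif2ak4*, which encodes GCN2, the kinase that senses uncharged tRNA when an amino acid such as tryptophan runs short, had 180, 212, and 172 in R3, 121, 121, and 132 in R2, and 119, 138, and 108 in R1. All R3 arrays were above all others, and R3 was called higher than R2 (0.59, adjusted p = 0.00826) and higher than R1 (0.63, adjusted p = 0.00445). Both calls were lost with the methods' t-test (adjusted p = 0.0694 and 0.124) and with replicate 1 left out (adjusted p = 0.124 and 0.078), and that against R2 with replicate 2 left out (adjusted p = 0.0719). Of the 4 genes of the kynurenic acid branch and the 8 of other fates of tryptophan, 0 were called in any comparison by limma, and at the shares of all genes called (9.55%, 13.5%, and 0.391%) lists of this size would hold few calls. At an unadjusted limma p under 0.05, the branch had 1, 1, and 0 and the other fates 1, 0, and 1 for R3 minus R2, R3 minus R1, and R2 minus R1, against 19.4%, 24.1%, and 10.7% of all genes. *Got2*, an aminotransferase of the branch, was called lower in R3 than in R1 with R1 replicate 1 left out (-0.71, adjusted p = 0.0232), and *Wars*, the tryptophanyl-tRNA synthetase, higher in R3 against R2 with R2 replicate 3 left out (0.46, adjusted p = 0.0399).

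The neighbors of *Kmo* in the RefSeq gene order are *Fh1* and *Opn3*. *Opn3*, which encodes an opsin, had 321, 285, and 218 in R3, 122, 114, and 166 in R2, and 134, 157, and 138 in R1. Its R3 arrays lay above all others, at a smaller step than for *Kmo*, and it did not separate R2 from R1. It was higher in R3 than in R2 by 1.04 (adjusted p = 0.00454), or 2.06-fold, and than in R1 by 0.93 (adjusted p = 0.00652), calls that were lost with the methods' t-test (adjusted p = 0.125 and 0.101) and with replicate 1 left out (adjusted p = 0.115 and 0.12) or replicate 2 (adjusted p = 0.128 and 0.085). *Fh1*, the mitochondrial fumarate hydratase, was higher in R3 by 0.34 against R2 (adjusted p = 0.0437) and 0.46 against R1 (adjusted p = 0.00811), and the call against R2 was lost in 13 of 20 alternative fits, among them the label date as a block (adjusted p = 0.0524) and the fit without any 1 of the R3 or R2 arrays (adjusted p from 0.0558 to 0.162). The call against R1 was lost with the methods' t-test (adjusted p = 0.102) and with replicate 1 (adjusted p = 0.0886) or 2 (adjusted p = 0.1) left out.

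The genes whose profile over the 9 arrays lay nearest to that of *Kmo* were *Nedd4*, *Aff3*, *Carmil1*, *Cd300c*, *Tfrc*, and *Srgap3*. Likeness was the root mean square difference of log2 intensities after each gene was centered on its own mean, and it was 0.20 for *Nedd4*, a ubiquitin ligase, 0.23 for *Aff3*, 0.24 for *Tfrc*, the transferrin receptor, and 0.25 for *Srgap3*, against a median of 1.60 over all genes. *Flt3*, on which the cells were sorted, followed at 0.31. The nearest 6 by Pearson's correlation shared 2 of these genes, *Nedd4* and *Aff3*. *Nedd4* had 697, 704, and 616 in R3, 96.9, 100, and 101 in R2, and 55.8, 72.0, and 73.1 in R1, the same order as *Kmo*. All these values come from the same 9 arrays, and each of these genes has its largest step between R3 and the others. They were picked as the nearest of all genes, so their closeness follows from the choice. A gene flat over the arrays also lies far from *Kmo*, so the median mainly reflects the R3 step of *Kmo*.

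**Figure D5:**
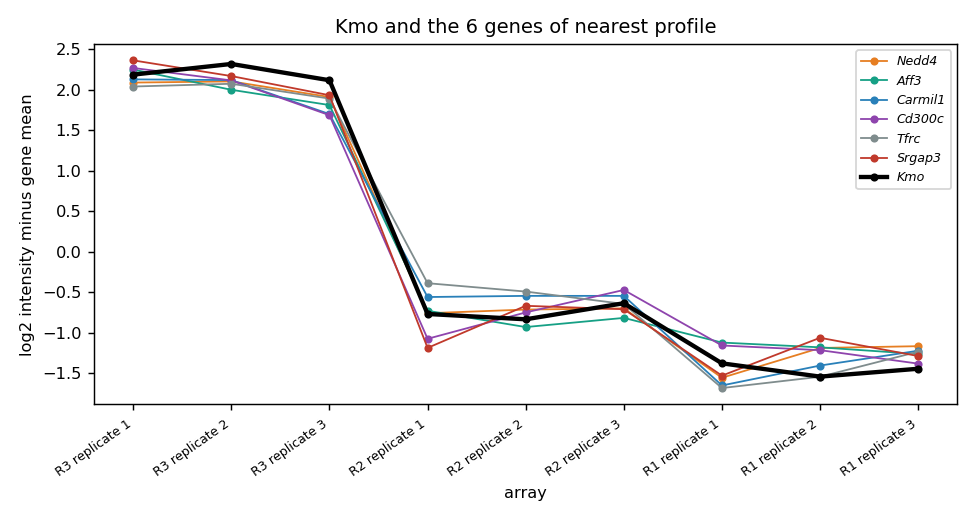
Log2 intensity minus the mean of each gene over the 9 arrays, by array, for *Kmo* (black) and the 6 genes nearest to it. The lines run together, high on the 3 R3 arrays and low on the R2 and R1 arrays, with differences from *Kmo* of 0.20 to 0.25 (root mean square).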

How the data were processed

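Bone marrow R3, R2, and R1 cells were measured on 9 Affymetrix Mouse Gene ST arrays, 3 per population, from 1 ng RNA per sample amplified with a NuGEN kit. The values the authors deposited are linear intensities of 34760 probe sets on each array, with array medians from 58.0 to 64.7. Their summarization and normalization were not given in the sources used here, and what that step does to dim genes was not tested. In the platform annotation 21640 probe sets name 1 gene, 1321 several, and 11799 none, and 21553 of the first were matched to RefSeq (GRCm38.p6, 0 symbols updated). Each of 19937 genes was read from its probe set with the highest mean, and 954 had more than 1. No filter on dim genes was applied. Of the probe sets, 1638 have equal values in all 3 arrays of a population, *Slc6a19* in R3 and *Nmrk1* in R2 among them, and none of the 6 genes described.

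After log2 transformation, limma (version 3.58.1, R 4.3.3) was run with lmFit and eBayes in 1 model of 3 populations over 9 arrays, without a block, since the study's methods name an unpaired t-test. Benjamini-Hochberg adjustment ran over all genes within each comparison, and a gene was called at an adjusted p under 0.05. The script was tested on simulated data. Arrays of 1 label date were treated as paired only in the differences by date and in an alternative fit, because the labels give the date. Deviations of arrays of the same date correlated at 0.074 to 0.15 for R3 and R2, -0.024 to 0.11 for R3 and R1, and 0.0038 to 0.15 for R2 and R1. Those of different dates correlated at -0.0998 to 0.0047, -0.1183 to 0.0808, and -0.1496 to 0.0315. For R3 and R2 every pair of the same date thus lay above every pair of different dates. The fit with the date as a block is among 20 alternatives, with other normalizations, probe set rules, tests, and arrays or dates left out. Each alternative, the methods' t-test among them, used the same adjustment over genes and the same threshold, which is not the study's own cutoff for array genes.

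The genes and lists were chosen with earlier results of these data known. Named are the 7 listed genes, of the wider list the called genes (at most the 6 of largest change per comparison), the neighbors of each listed gene, the 6 genes nearest to *Kmo*, and a few markers. *Slc36a4*, *Gpr35*, *Nampt*, *Qprt*, *Ahr*, *Slc3a2*, *Tdo2*, *Got2*, *Wars*, *Cyp1a1*, *Cyp1b1*, *Ahrr*, and the next gene in likeness, *Flt3*, are named beyond this rule, after their values were seen. The count of tested genes was planned over 6 and covers 5, since *Il4i1* had no probe set of its own. Fold changes and p-values of the study's own supplementary comparisons were not used.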

Additional observations from a re-analysis of the deposited data

How the results depend on the processing

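All 60 values of *Kmo* under the 20 alternatives lay within 1 SD of the reported values. Several of them could not move. *Kmo* has 1 probe set, and a date block or another test leaves a difference of means as it is. The same holds when genes, or arrays of the population outside the comparison, are left out. Of 354 log2 fold changes of the 6 genes under the alternatives, 339 kept their direction and side of the threshold, 10 reversed, 4 gained a call, and 1 lost it. The number of genes called around *Kmo* was 1 in each R3 comparison and 0 between R2 and R1. It ranged from 1 to 2 in both R3 comparisons with any 1 array or date left out, where the gain was *Afmid* without R3 replicate 2. With replicate 2 left out of all populations *Afmid* was gained in both, making 2 against R2, and *Kynu* was lost against R1, so that the count there was again 1 but of another gene. With the label date as a replicate block the counts were again 1, 1, and 0, and 4, 10, and 0 for the wider list, where *Got2* was gained against R1 (adjusted p = 0.0268). The count of the wider list moved more. Between R3 and R2 it was 2 with the methods' t-test, 7 with these populations fitted alone, 7 with array weights, and 2 to 6 without any 1 array or date. Between R3 and R1 it was 3 with the methods' t-test and 5 to 12 without any 1 array or date. Between R2 and R1 it was 1 with quantile normalization (*Slc16a10*) and 2 with array weights (*Slc16a10* and *Ahr*). The counts over all genes moved too: between R3 and R2 they were 893, 1935, and 2467 with the t-test, these populations alone, and array weights, against 1903, between R3 and R1 658 with the t-test, against 2693, and between R2 and R1 144 with quantile normalization and 343 with array weights, against 78. The cause was not tested. The position of R2 for *Kmo* between R1 and R3 was 5.44% on the linear and 19.3% on the log2 scale.

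The reversals were of *Ido1* and *Ido2*, near 0 and not called. With arrays left out, *Ido1* ran from -0.137 to 0.0492 for R3 minus R2, from -0.297 to 0.0234 for R3 minus R1, and from -0.251 to 0.117 for R2 minus R1, and *Ido2* from -0.125 to 0.0230 and from -0.113 to 0.0141 for R3 minus R2 and R2 minus R1. With array weights *Ido2* was 0.0036 for R2 minus R1. A fit on bright genes only leaves out *Ido1* and *Ido2* and gives no value for them. Their intensities lie within the gauge of genes of other tissues, which limits what these arrays can show of them.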

Other observations

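Of 14 measured neighbors of the listed genes, *Fh1* and *Opn3* beside *Kmo* included, limma called 6 against R2, all higher in R3, where 4.85% of all genes were higher and 4.69% lower. Against R1 it called 6, again all higher in R3, where 6.49% of all genes were higher and 7.02% lower. These shares include dim genes. In the fit on bright genes only, 2068 of 10364 genes were called against R2, 1051 of them higher in R3. Against R1 that fit called 2946, with 1440 higher in R3. *Mta3*, a subunit of the NuRD chromatin complex next to *Haao*, had 769, 874, and 836 in R3, 564, 527, and 478 in R2, and 527, 638, and 534 in R1. It was called higher in R3 than in R2 (0.66 on the log2 scale, adjusted p = 0.00265) and than in R1 (0.55, adjusted p = 0.00573), whereas *Haao* was not called. Both calls of *Mta3* were lost when the mean of all its probe sets was used (0.29 and 0.26, adjusted p = 0.0566 and 0.0691) and with replicate 3 left out (adjusted p = 0.0755 and 0.084), that against R2 with replicate 2 left out (adjusted p = 0.0504), and that against R1 with the methods' t-test (adjusted p = 0.0954). *Zfp36l2*, on the other side of *Haao*, was not called (adjusted p = 0.111, 0.764, and 0.445 for R3 minus R2, R3 minus R1, and R2 minus R1). *Syngr2*, a vesicle protein next to *Afmid*, was called higher in R3 than in R2 (0.58, adjusted p = 0.00219) and than in R1 (0.60, adjusted p = 0.00143), at 3735, 3510, and 3783 in R3, 2407, 2550, and 2402 in R2, and 2151, 2544, and 2611 in R1. The call against R2 was lost with replicate 3 left out (adjusted p = 0.059) and that against R1 with the methods' t-test (adjusted p = 0.0678). *Birc5*, the mitotic protein survivin on the other side of *Afmid*, was higher in R3 than in R1 (0.46, adjusted p = 0.0325), at 2879, 2951, and 3091 in R3, 2928, 2894, and 3209 in R2, and 1811, 2153, and 2591 in R1. The *Birc5* call was lost in 12 of 20 alternative fits (adjusted p from 0.0545 to 0.27), among them those without any 1 of the R3 arrays, R2 replicate 1 or 2, or R1 replicate 1 or 2. A list of 7 proliferation genes summed to 15095 to 15318 in R3, 15019 to 15308 in R2, and 8859 to 11713 in R1, and its part in the *Birc5* and *Tk1* values was not tested.

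Next to *Il4i1*, *Nup62*, a nuclear pore protein, was called higher in R3 than in R2 (0.46, adjusted p = 0.0116) and than in R1 (0.47, adjusted p = 0.00738), with 1981, 2048, and 2030 in R3, 1558, 1381, and 1479 in R2, and 1275, 1556, and 1550 in R1. The call against R2 was lost without R2 replicate 2 (adjusted p = 0.0542), and with replicate 2 or 3 left out of all populations both calls were lost (adjusted p = 0.185 and 0.141 against R2, 0.0789 and 0.0743 against R1). The call against R1 was also lost with the methods' t-test (adjusted p = 0.109). *Tbc1d17*, which overlaps *Il4i1* in the RefSeq table, was called higher in R3 than in R2 (0.55, adjusted p = 0.01), and not with the methods' t-test (adjusted p = 0.0874) or with replicate 1 (adjusted p = 0.172) or 2 (adjusted p = 0.0647) left out. R3 minus R1 was 0.32 (adjusted p = 0.0924) and was called with the label date as a block (adjusted p = 0.0288) and without R1 replicate 3 (adjusted p = 0.048). *Akt1s1*, on the other side of *Il4i1*, was not called (adjusted p = 0.835, 0.502, and 0.55 for R3 minus R2, R3 minus R1, and R2 minus R1). *Arhgap15*, next to *Kynu*, had 895, 1058, and 722 in R3, 1062, 1510, and 1040 in R2, and 1006, 905, and 842 in R1 and was not called in any comparison, nor was *Lrp1b* on the other side (adjusted p = 0.806, 0.843, and 0.959). The genes beside *Ido1* and *Ido2*, *Adam18* and *Tcim*, were at 11.0 to 13.8 on all arrays.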
